A study of Sus scrofa with 24 samples.

Results

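Sugar, peptide, amino acid and mineral absorption was followed through 10 genes: SLC5A1, SLC2A2 and SLC2A5 for sugars, SLC15A1 for peptides, SLC6A19, SLC7A9 and SLC3A1 for amino acids, SLC11A2 and SLC40A1 for iron and S100G for calcium. They were found on the arrays as 24 probes among 60305, all those whose gene name or description gave one of the 10 symbols exactly, and the 10 genes stand beside 12523 named genes on the array. The samples came from 6 crossbred pigs (Sus scrofa), with 4 tissues from each. The animals, numbered 68, 69, 70, 71, 73 and 75, had been weaned on day 28 and were killed at 10 weeks of age. No treatment or genotype separated the pigs, and free feeding was shared by all groups. The tissues were liver, spleen, a portion of jejunum without Peyer's patches (called Jejunum here) and a portion that held them (called Peyer). A Peyer's patch is a cluster of B cell follicles in the gut wall under a thin covering epithelium. Each pig gave 1 sample of each tissue, so every tissue has n = 6.

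Absorptive cells of the small intestine carry out these steps in a fixed order across the cell. Transporters in the brush border take nutrients up from the gut lumen, often driven by sodium or protons, carrier proteins hold some of them inside the cell, and other transporters in the basolateral membrane release them towards the blood. The jejunum is the main site of sugar, peptide and amino acid uptake, while the liver takes up and releases glucose through one of the same carriers and both liver and spleen recycle iron.

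The arrays read these genes through probes of 60 bases, and the sequences decide which stretch of each transcript was measured. The sequences below come from the deposited scanner files and are written 5′ to 3′ in the sense of the transcript. They are a selection of the sugar, peptide, amino acid and iron transport probes with a reading frame free of stop codons over their whole length. Whether that frame is the translated one was not tested. The brightest probes of SLC15A1, SLC3A1 and SLC11A2 and the SLC40A1 probe are not among the sequences shown.

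SLC5A1, probe A_72_P444300: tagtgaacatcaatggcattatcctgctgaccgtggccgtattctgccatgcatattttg
SLC5A1, probe A_72_P488671: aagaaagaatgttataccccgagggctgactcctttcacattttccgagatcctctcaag
SLC2A2, probe O14089: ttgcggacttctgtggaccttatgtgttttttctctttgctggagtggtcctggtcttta
SLC2A2, probe A_72_P077641: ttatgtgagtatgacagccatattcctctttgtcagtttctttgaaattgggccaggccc
SLC2A5, probe O11814: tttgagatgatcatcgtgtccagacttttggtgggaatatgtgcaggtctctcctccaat
SLC15A1, probe A_72_P453085: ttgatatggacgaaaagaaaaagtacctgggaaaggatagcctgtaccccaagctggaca
SLC6A19, probe A_72_P186246: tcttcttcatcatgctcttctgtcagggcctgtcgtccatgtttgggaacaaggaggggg
SLC7A9, probe A_72_P088796: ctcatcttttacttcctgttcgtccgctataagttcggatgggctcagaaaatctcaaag
SLC3A1, probe A_72_P409053: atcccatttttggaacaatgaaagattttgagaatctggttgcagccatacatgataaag
SLC11A2, probe A_72_P442096: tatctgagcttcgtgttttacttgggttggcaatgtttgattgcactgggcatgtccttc
SLC11A2, probe A_72_P678294: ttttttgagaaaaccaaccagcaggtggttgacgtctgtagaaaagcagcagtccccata

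For S100G a stretch of 30 bases is shown of each of its 3 probes, since these probes gave different results. The capitals mark AATAAA, the usual polyadenylation signal, with which the brightest probe ends.

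S100G, probe A_72_P088751: atgatccagcagtgaggtctaattAATAAA
S100G, probe A_72_P701142: gaaaaagatatcccagtgaaggaaaaacac
S100G, probe A_72_P496336: attgcctttctcaagcaataaccgttatta

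The 3 S100G probes shared no run longer than 6 bases on either strand. For SLC2A5 the array carries the same 60 bases a second time under a probe with no gene name, A_72_P437484. Of the 4 SLC3A1 probes, A_72_P041371 and A_72_P691227 overlap by 56 bases and so read almost the same site.

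Each level is a log2 signal minus the log2 of its array's 75th percentile, so a level of 0 is the signal at that percentile. With several probes, the gene is described by its brightest probe over the 24 arrays, and the others follow. Probes differ in how well they bind, so levels are set side by side between tissues and never between genes. A difference was called when its limma adjusted p was under 0.05 and it was at least 2-fold, and errors of differences are SE. The Liver and Spleen arrays shared slides 1 to 3 and the Jejunum and Peyer arrays slides 4 to 6, so tissue and slide set cannot be told apart in any comparison of gut with liver or spleen. In bulk tissue, fewer cells of a type and less RNA per cell cannot be told apart either.

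The tissue labels were checked on markers of the cell types. A list of 11 genes of the intestinal epithelium averaged between 6.26 and 6.41 on the Jejunum arrays and between 5.02 and 6.35 on Peyer, against -1.32 to -0.68 on Liver. On 5 Spleen arrays this mean lay between -5.56 and -4.31, and on the Spleen array of animal 73 it was -1.15, with 11 of the 11 markers well above background there and 4 or 5 on each of the others. Of the 11 genes 10 were called higher in Jejunum than in Liver and 1 lower, at -3.39, where 18.1% of all tested probes were higher and 15.2% lower. A list of 7 hepatocyte genes averaged 8.40 to 8.75 on Liver and -4.74 to -0.42 on Spleen, highest there in animal 68. On Jejunum its mean was -3.92 to -2.93 and on Peyer -5.05 to -3.68. The Peyer array of animal 71 was nearer to the Jejunum array of the same pig (r = 0.992 over probes) than to any Peyer array. On it 7 B cell genes averaged -1.63, against 1.24 to 1.47 on the other Peyer arrays and -4.30 to -3.96 on Jejunum. The 75th percentile signal ran from 275 to 1098 on the Spleen arrays, from 424 to 526 on Liver, from 681 to 1001 on Jejunum and from 877 to 2262 on Peyer.

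**Figure D1:**
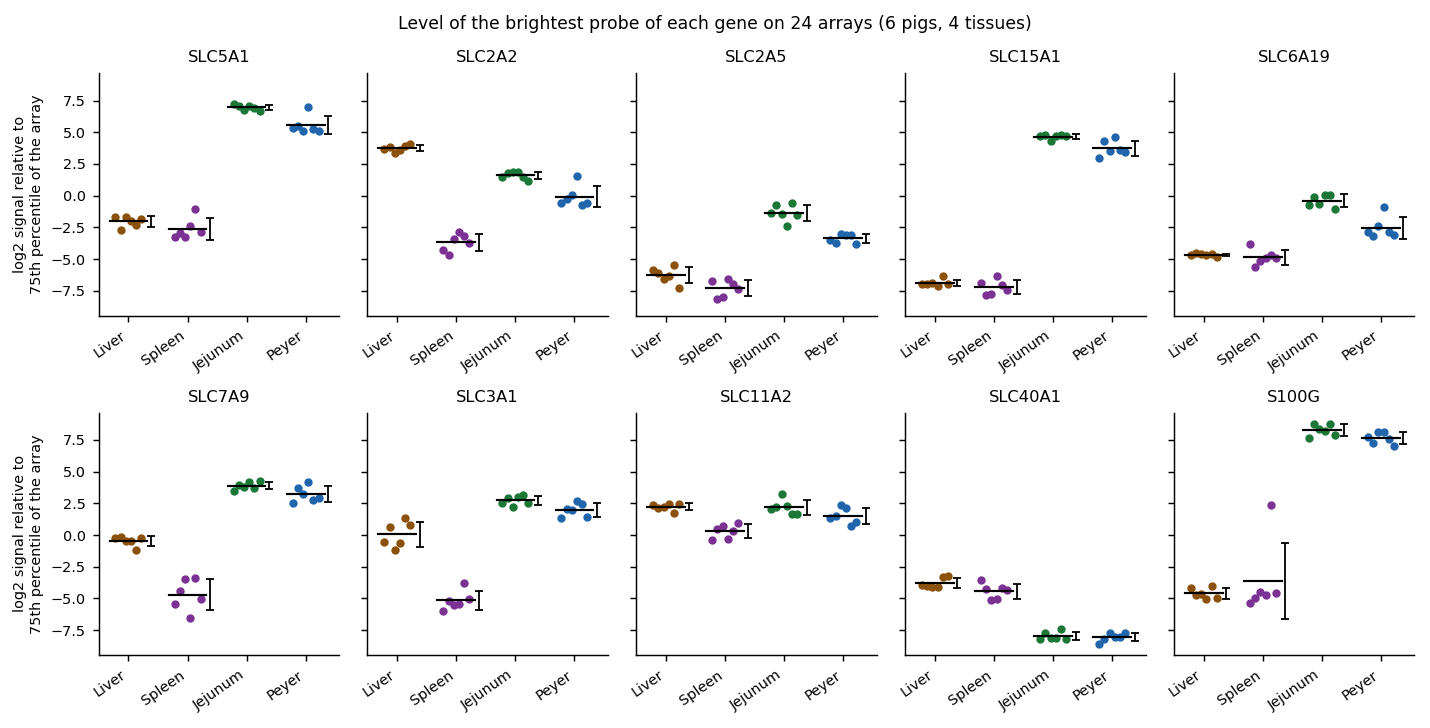
Log2 signal relative to the array's 75th percentile (y axis) for the brightest probe of each of the 10 genes in 4 tissues (x axis). Each point is 1 array, 6 per tissue in the order of the animal numbers, the line is the mean and the bar beside it is ± 1 SD. Levels are compared within a panel: 7 genes stand higher in both gut tissues than in liver and spleen, SLC2A2 is highest in Liver, SLC11A2 is lowest in Spleen on this probe and SLC40A1 is below background in both gut tissues.

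Jejunum differed from Liver in 9 of the 10 genes, 7 higher and 2 lower, where 33.3% of all 42650 tested probes were called, 18.1% higher and 15.2% lower. The median difference of the 10 genes was 4.31, against 0.03 over all tested probes. Jejunum differed from Spleen in all 10, 9 higher and 1 lower, against a background of 31% called, 15% higher and 16% lower, with a median of 6.91 against -0.16. Over the 24 probes, 17 were higher and 3 lower than in Liver, and 20 were higher and 1 lower than in Spleen. The arrays of the tissues compared did not overlap for 9 genes between Jejunum and Liver and for 10 between Jejunum and Spleen, where 45.2% and 41.9% of all tested probes did not.

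SLC5A1 encodes SGLT1, which carries glucose and galactose across the brush border together with sodium. Its level ran from 6.68 to 7.22 in Jejunum (median 6.99), from 5.07 to 7.01 in Peyer (median 5.30), from -2.68 to -1.70 in Liver (median -1.88) and from -3.29 to -1.01 in Spleen (median -2.90). The lowest gut array stood far above the highest array of liver or spleen, and liver and spleen overlapped. Jejunum was higher than Liver by 8.99 ± 0.33 (adjusted p = 7.1e-17, 6 of 6 pigs) and higher than Spleen by 9.58 ± 0.33 (adjusted p = 8e-17, 6 of 6 pigs). The other 4 probes gave differences of 8.42 to 10.2 from Liver and 9.55 to 11.7 from Spleen, and each correlated with the first at r of 0.967 to 0.994 over the 24 arrays. Liver had SLC5A1 above background on 6 of 6 arrays, and Spleen stood below Liver by 0.59 ± 0.33, a difference that was not called (adjusted p = 0.12). In that comparison 3 of the other 4 probes were called lower in Spleen, at -1.86, -1.49 and -1.14. These sizes rest on dim signals, with 4, 2 and 1 Spleen arrays above background and 6, 5 and 1 Liver arrays. The remaining probe, A_72_P176146, was not called at -0.56, with 1 Spleen array (animal 70) at -0.16 and the rest at -3.98 or lower.

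SLC2A2 encodes GLUT2, a carrier of glucose and fructose in the basolateral membrane of enterocytes and in the hepatocyte membrane. Unlike the sodium-linked transporter it was highest in Liver, with levels from 3.37 to 4.06 (median 3.78), then in Jejunum from 1.12 to 1.87 (median 1.66), in Peyer from -0.70 to 1.53 (median -0.40) and in Spleen from -4.64 to -2.82 (median -3.58). Liver, Jejunum and Spleen did not overlap, and Peyer overlapped Jejunum through 1 array, that of animal 71. Jejunum was lower than Liver at -2.16 ± 0.32 (adjusted p = 2.7e-06, 6 of 6 pigs) and Peyer at -3.84 ± 0.32 (adjusted p = 2.1e-10). Spleen was lower than Liver at -7.43 ± 0.32 (adjusted p = 8.7e-16), with slide values of -8.24, -6.61 and -7.46. Probe A_72_P077641 gave -2.15 for Jejunum minus Liver and -3.84 for Peyer minus Liver. Against Spleen the 2 probes differed in size. The brightest was above background on 6 of 6 Spleen arrays, with Liver 173-fold and Jejunum 38.9-fold higher than Spleen. A_72_P077641 was above background on no Spleen array, so Liver was at least 311-fold higher than Spleen on it and Jejunum at least 70.2-fold higher. Such a bound takes, on each array of the dim tissue, the lowest signal well above background or the probe's own signal where that was higher.

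SLC2A5 encodes GLUT5, the fructose carrier of the brush border. Its levels were -2.35 to -0.57 in Jejunum (median -1.42) and -3.78 to -2.99 in Peyer (median -3.31), and no array of Liver (median -6.21) or Spleen (median -7.15) was above background. The 4 groups separated into Jejunum above Peyer above the other two, which overlapped. Jejunum was at least 12.4-fold higher than Liver (adjusted p = 2.2e-12) and at least 17.5-fold higher than Spleen (adjusted p = 1.2e-13), and Peyer at least 3.03-fold and 4.28-fold higher (adjusted p = 2.4e-08 and 3.5e-10). The measured differences of Peyer from Liver and Spleen, 2.90 and 3.92, became 0.14 and 0.63 with another background correction (normexp) and then fell short of the call. Between Spleen and Liver the probe was called lower at -1.02 ± 0.32 (adjusted p = 0.0065), but both groups lay below background, and the unnamed probe of the same 60 bases gave -0.45 ± 0.29 (adjusted p = 0.17). Leaving out animal 69, 70 or 73 put the first probe at -0.83, -0.94 or -0.93, short of the call. The unnamed probe otherwise gave the same picture, with 5.62 for Jejunum minus Liver and 6.07 for Jejunum minus Spleen.

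SLC15A1 encodes PEPT1, the proton-driven importer of dipeptides and tripeptides in the brush border. Its levels lay between 4.30 and 4.81 in Jejunum (median 4.70) and between 2.95 and 4.60 in Peyer (median 3.56). On no array of Liver (-7.10 to -6.35) or Spleen (-7.83 to -6.36) was it above background, and these groups overlapped each other only. Jejunum was at least 790-fold higher than Liver (adjusted p = 7.7e-21) and at least 1116-fold higher than Spleen (adjusted p = 6.9e-20), and Peyer at least 415-fold and 586-fold higher. With normexp, which adds an offset to every signal, the log2 differences of Jejunum were 7.55 and 7.83 and those of Peyer 6.70 and 6.98, all still called and all smaller than these bounds. The probe A_72_P453085, printed above, gave bounds of 281-fold and 397-fold for Jejunum.

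SLC6A19 encodes the sodium-linked importer of neutral amino acids in the brush border, known as B0AT1. Its levels were -1.03 to 0.09 in Jejunum (median -0.35), -3.19 to -0.90 in Peyer (median -2.88), -4.82 to -4.55 in Liver (median -4.64) and -5.62 to -3.84 in Spleen (median -4.91). Every gut array stood above every liver and spleen array. It was above background on 3 Liver and 4 Spleen arrays, so the distance to those tissues rests on signals near the background. Jejunum was higher than Liver by 4.28 ± 0.32 (adjusted p = 2.8e-11) and than Spleen by 4.46 ± 0.32 (adjusted p = 2.1e-11), and Peyer by 2.10 ± 0.32 and 2.29 ± 0.32 (adjusted p = 3e-06 and 2e-06). With normexp the differences of Peyer were 0.39 and 0.74 and were not called. Spleen and Liver differed by -0.19 ± 0.32, which was not called (adjusted p = 0.61).

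SLC7A9 and SLC3A1 encode the light and heavy chain of one brush border exchanger, which takes up cystine and basic amino acids, and both were measured in liver as well as gut. SLC7A9 ran from 3.44 to 4.22 in Jejunum (median 3.88), from 2.49 to 4.18 in Peyer (median 3.07), from -1.18 to -0.14 in Liver (median -0.34) and from -6.56 to -3.38 in Spleen (median -4.72). SLC3A1 ran from 2.19 to 3.16 in Jejunum (median 2.76), from 1.34 to 2.66 in Peyer (median 2.02), from -1.17 to 1.35 in Liver (median 0.02) and from -6.01 to -3.80 in Spleen (median -5.31). For both chains the order was gut, then Liver, then Spleen, and only SLC3A1 had a Peyer array as low as its highest Liver array.

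Jejunum was higher than Liver by 4.34 ± 0.40 for SLC7A9 (adjusted p = 1.4e-09) and by 2.67 ± 0.38 for SLC3A1 (adjusted p = 1.9e-06), each in 6 of 6 pigs. Spleen was lower than Liver at -4.25 ± 0.40 for SLC7A9 (adjusted p = 1.6e-09) and -5.21 ± 0.38 for SLC3A1 (adjusted p = 2.1e-11). In Spleen each was above background on 4 of 6 arrays. The second SLC7A9 probe gave 4.50 and -3.79 for these comparisons. A probe named Slc7a9 in other letters, which the exact rule leaves out, correlated with the first at r = 0.998 and gave 4.46 and -4.08.

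Within Liver the heavy chain varied more between pigs than the light chain. SLC3A1 stood at 1.35 in animal 73, 0.78 in 75 and 0.60 in 69, and at -0.57 in 68, -0.66 in 71 and -1.17 in 70. The same 3 pigs were the higher ones on each of the other 3 SLC3A1 probes in Liver. The SD was 0.99 over Liver arrays against 0.36 in Jejunum and 0.53 in Peyer. SLC7A9 had an SD of 0.38 in Liver, where animal 73 was the lowest pig at -1.18. No SLC3A1 probe passed the test for an animal effect over all 4 tissues (lowest adjusted p = 0.078), where 5.47% of all tested probes did.

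SLC11A2 encodes DMT1, which takes ferrous iron across the brush border and out of endosomes, and it was the only gene of the 10 that did not differ by the call between Jejunum and Liver. Its brightest probe ran from 1.76 to 2.47 in Liver (median 2.30), from 1.68 to 3.22 in Jejunum (median 2.12), from 0.70 to 2.39 in Peyer (median 1.41) and from -0.40 to 0.93 in Spleen (median 0.41). Liver, Jejunum and Peyer overlapped, and Spleen lay below Liver and Jejunum without overlap. Jejunum minus Liver was -0.05 ± 0.29 (adjusted p = 0.89). Spleen was lower than Liver at -1.94 ± 0.29 (adjusted p = 2.9e-06), and Jejunum was higher than Spleen by 1.89 ± 0.29 (adjusted p = 5.9e-06).

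The other 2 SLC11A2 probes, A_72_P442096 and A_72_P678294, were not called in these comparisons with Spleen, at -0.98 and -0.77 for Spleen minus Liver and 0.71 and 0.51 for Jejunum minus Spleen. For Peyer minus Spleen the 3 probes differed in sign. The brightest gave 1.22 ± 0.29 (adjusted p = 0.0011), A_72_P442096 gave -0.08 ± 0.21 and A_72_P678294 gave -0.58 ± 0.36. Without animal 71 the brightest probe gave 0.97 and fell short of the 2-fold call. For Peyer minus Liver the brightest probe stood at -0.72 and was not called, while the others were called lower at -1.06 and -1.35. Their correlations with the brightest were 0.717 and 0.467 over 24 arrays. Of the 24 member probes 2 had an animal effect, where 5.47% of all tested probes did, and A_72_P678294 was 1 of them (adjusted p = 0.0067). On it animals 70 and 71 were among the highest in Peyer and Spleen, and animal 75 was among the lowest in each tissue.

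SLC40A1 encodes ferroportin, which exports iron from enterocytes, macrophages and hepatocytes, and it ran against the other genes. Its single probe lay between -4.11 and -3.21 in Liver (median -3.98), between -5.13 and -3.53 in Spleen (median -4.31), between -8.17 and -7.42 in Jejunum and between -8.61 and -7.73 in Peyer. It was above background on 6 Liver and 5 Spleen arrays and on no gut array. Liver was at least 4.04-fold higher than Jejunum (adjusted p = 2e-13) and at least 5.86-fold higher than Peyer (adjusted p = 1.3e-13), and Spleen at least 2.61-fold and 3.79-fold higher (adjusted p = 7e-12 and 6.8e-12). With normexp the difference between Jejunum and Spleen was -0.93 and fell short of the 2-fold call. Spleen and Liver overlapped, at -0.63 ± 0.24 (adjusted p = 0.022, under 2-fold). The probe is annotated in the files through a human transcript, as are the SLC2A5 probe and the brighter SLC2A2 probe, and no other SLC40A1 probe could check it.

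S100G encodes calbindin D9k, the small protein that carries calcium through the enterocyte. Its brightest probe lay between 7.64 and 8.78 in Jejunum (median 8.26), between 6.998 and 8.14 in Peyer (median 7.65), between -5.07 and -4.04 in Liver (median -4.67) and, on 5 Spleen arrays, between -5.36 and -4.51. The remaining Spleen array, of animal 73, stood at 2.38, between the groups and still below every gut array. Jejunum was higher than Liver by 12.9 ± 0.83 (adjusted p = 2.2e-12, 6 of 6 pigs) and than Spleen by 11.9 ± 0.83 (adjusted p = 1.5e-11). The probe was above background on 4 Liver and 4 Spleen arrays, so these sizes rest partly on signals near the background. The shared error includes an SD of 2.96 in Spleen, against 0.42 in Liver and 0.45 in Jejunum. Without the Spleen array of animal 73 the difference from Spleen was 13.1, and Spleen minus Liver moved from 0.98 to -0.22, not called either way. Peyer was higher than Liver by 12.2 and than Spleen by 11.3 (12.5 without that array).

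Of the other S100G probes, A_72_P701142 followed the first at r = 0.999, and it had 0 Liver arrays above background, which put Jejunum at least 6516-fold and Peyer at least 4810-fold above Liver. A_72_P496336 did not follow (r = -0.02). It was above background on all 24 arrays at means of -2.98 in Liver, -3.07 in Jejunum, -3.42 in Peyer and -3.53 in Spleen, and it was called in none of the 6 comparisons. Its largest difference was Spleen minus Liver at -0.56 ± 0.22 (adjusted p = 0.026, under 2-fold). It was the other member probe with an animal effect (adjusted p = 0.03). The files name this probe from the description of a cDNA clone, and the other probes from the S100G messenger RNA.

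**Figure D2:**
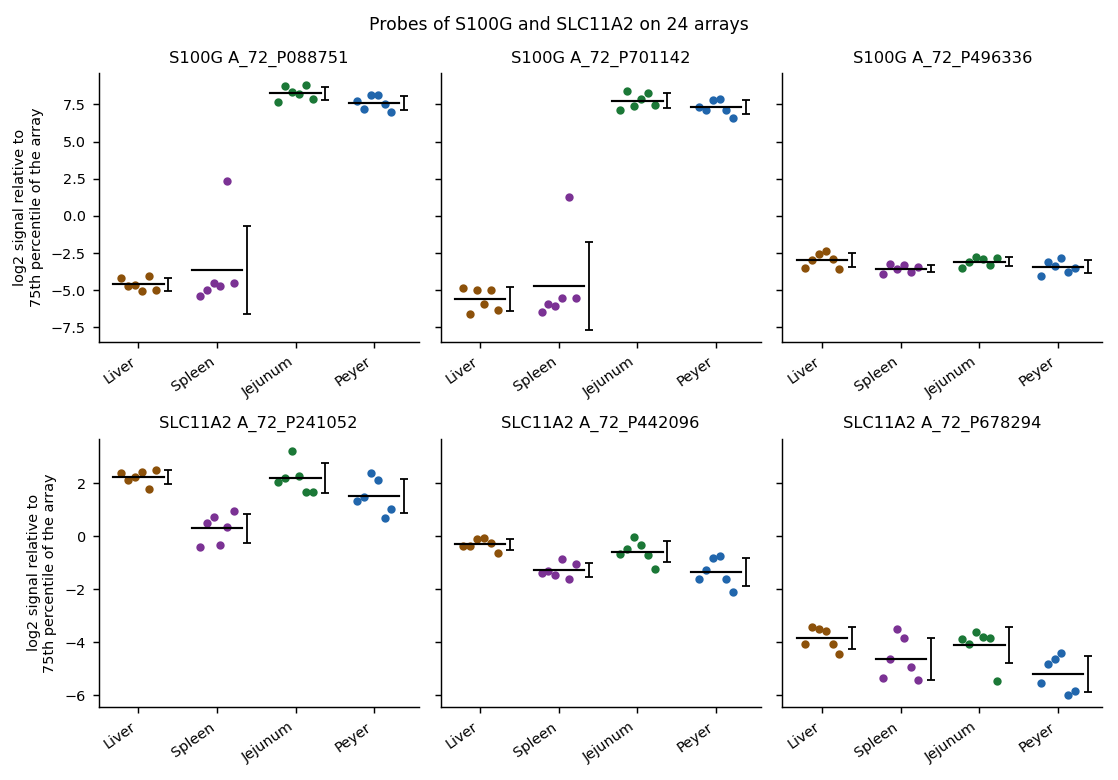
Log2 signal relative to the array's 75th percentile (y axis) for the 3 probes of S100G (upper row) and of SLC11A2 (lower row) in 4 tissues (x axis), with 1 point per array, the mean as a line and ± 1 SD as a bar. A_72_P088751 and A_72_P701142 of S100G stand above 6 on every gut array, with the Spleen array of animal 73 between gut and liver, while the tissues overlap on A_72_P496336. All SLC11A2 probes have a lower mean in Peyer than in Jejunum, and the change was called for A_72_P678294.

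The Spleen array of animal 73 carried other epithelial transcripts beside S100G. Of the 11 epithelial markers 9 were highest on it, among them APOA4 at 1.56 against -7.96 to -4.62 on the others, FABP2 at -0.83 against -7.92 to -6.39 and KRT20 at -1.74 against -8.17 to -6.68. Of the 24 member probes 9 were highest on it, and 8 were highest on the array of animal 71, where 6 were above background. The array of animal 73 had 18 above background, and the other Spleen arrays 6 to 14. Over all probes, 75.6% were above background on the array of animal 73, against 62.8% to 71.9% on the other Spleen arrays. SLC5A1 stood at -1.01 in animal 73 against -3.29 to -2.37, and SLC3A1 at -3.80 against -6.01 to -5.01. Other members did not follow. Animal 73 had SLC15A1 at -7.01, SLC2A2 at -3.19, SLC2A5 at -6.95, SLC6A19 at -4.67, SLC11A2 at 0.33 and SLC40A1 at -4.20. Each of these lay within the range of the other Spleen arrays. SLC7A9 at -3.38 was just above the next highest, animal 70 at -3.43. Without the array of animal 73, an alternative added after its values were seen, the number of member genes called was the same in each of the 6 comparisons. The part of gut RNA in these Spleen values was not tested.

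**Figure D3:**
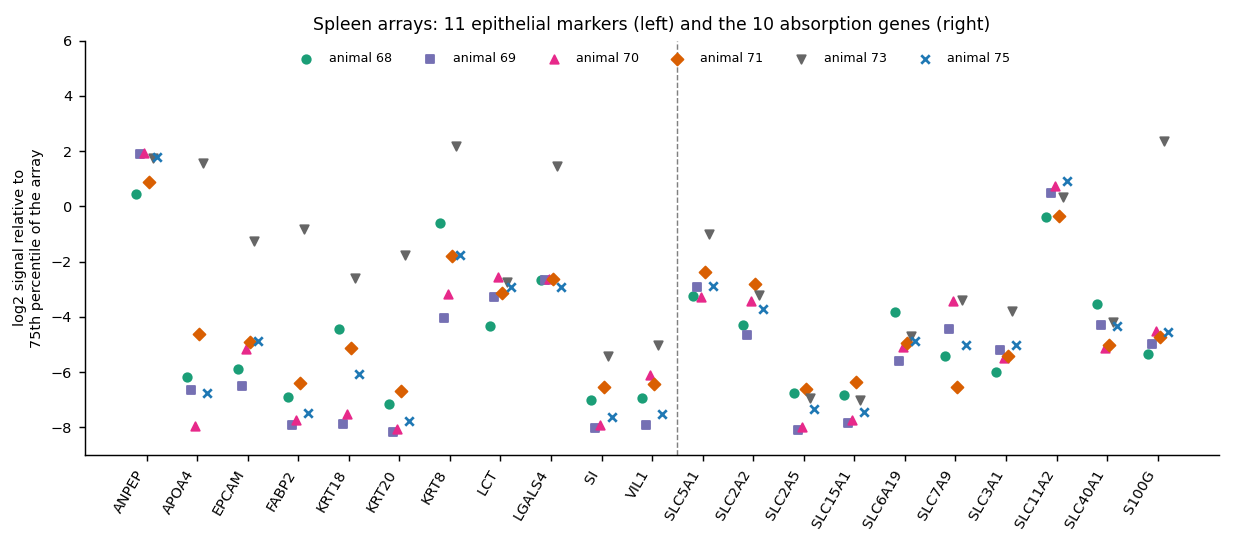
Log2 signal relative to the array's 75th percentile (y axis) on the 6 Spleen arrays, 1 symbol per animal, for 11 epithelial markers (left of the dashed line) and the brightest probes of the 10 genes (right). Animal 73 stands apart upward for APOA4, EPCAM, FABP2, KRT20, LGALS4 and S100G. Among the 10 genes it lies within the others for SLC15A1, SLC2A2, SLC2A5, SLC6A19, SLC11A2 and SLC40A1.

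The comparison of Peyer with Jejunum asks how far a stretch with lymphoid follicles keeps the absorptive profile of the neighbouring wall. All 10 genes had a lower mean in Peyer, SLC40A1 with other scalings a higher one (0.08 with median centring, 0.20 with quantile normalization), and 4 passed the call, SLC6A19, SLC2A5, SLC2A2 and SLC5A1, where 14.1% of all tested probes were called, 8.48% lower and 5.61% higher. The balance of all calls depended on the scaling, with 39.8% of them higher here, 59.6% with median centring and 53.1% with quantile normalization and 55.6% in the authors' values, while the same number of members, 4, was called with each. No member was higher. The median was -0.83 for the 10 genes and -0.16 over all tested probes, which stood at 0.02 with median centring. By probes and at this scaling, 24 of 24 were below 0 and 10 were called lower.

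SLC6A19 was lower at -2.17 ± 0.32 (adjusted p = 3.4e-05) and SLC2A5 at -2.03 ± 0.32 (adjusted p = 6.7e-05), each in 6 of 6 pigs. SLC2A5 was the only gene of the 10 whose Peyer and Jejunum arrays did not overlap, where 11.2% of all tested probes did not, a share near that of the members. The unnamed twin probe of SLC2A5 gave -2.06. SLC2A2 was lower at -1.68 ± 0.32 (adjusted p = 0.00035) and SLC5A1 at -1.40 ± 0.33 (adjusted p = 0.0023), again in 6 of 6 pigs. The second SLC2A2 probe gave -1.69. Of the other SLC5A1 probes 3 were called, at -2.28, -1.18 and -1.18, and A_72_P176146 gave -1.22 in 6 of 6 pigs without passing (adjusted p = 0.16). The fit shares its estimate of the spread over all 24 arrays. On A_72_P176146 the SD was 2.41 in Spleen, against 0.22 in Jejunum and 0.65 in Peyer, so this p-value also carries the spread of Spleen. Within slides 4, 5 and 6 the differences were -2.64, -1.37 and -2.51 for SLC6A19, -2.54, -1.15 and -2.40 for SLC2A5, -2.05, -1.05 and -1.93 for SLC2A2 and -1.71, -0.86 and -1.63 for SLC5A1. Slide 5, which holds animals 70 and 71, gave the smallest of the 3 for each gene.

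The other 6 genes did not pass. SLC15A1 stood at -0.93 ± 0.25 (adjusted p = 0.0053, 6 of 6 pigs), short of 2-fold, and its second probe gave -0.97. SLC3A1 gave -0.74 ± 0.38 (adjusted p = 0.12, 6 of 6 pigs), SLC7A9 -0.68 ± 0.40 (adjusted p = 0.17, 5 of 6), SLC11A2 -0.67 ± 0.29 (adjusted p = 0.067, 6 of 6) and S100G -0.63 ± 0.83 (adjusted p = 0.55, 5 of 6). The error and p-value of S100G rest on the spread over all 24 arrays, with an SD of 2.96 in Spleen. Within the gut its SD was 0.45 in Jejunum and 0.47 in Peyer. SLC40A1, below background in both tissues, differed by -0.09 ± 0.24. Among the other probes A_72_P443088 of SLC3A1 (-1.14, adjusted p = 0.028) and A_72_P678294 of SLC11A2 (-1.09, adjusted p = 0.019) were called lower.

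Pig 71 differed from the rest in this comparison. Its Peyer minus Jejunum was -0.08 for SLC5A1, where the other pigs had -1.91 to -1.51, and -0.32 for SLC2A2 against -2.14 to -1.73. It was -0.99 for SLC6A19 against -3.12 to -1.74 and -0.76 for SLC2A5 against -2.98 to -1.54. Without the Peyer array of this animal 5 genes were called lower, SLC15A1 with them at -1.10 (adjusted p = 0.00059), and SLC6A19 stood at -2.50, SLC2A5 at -2.08 and SLC5A1 at -1.69. SLC15A1 also passed with all samples of animal 69 left out, at -1.01.

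Other cell types differed between these tissues too. Of the 11 epithelial markers 1 was called lower in Peyer, SI at -1.28, and 10 were not called. Their mean difference was -0.92, at -1.24 to -0.86 in 5 pigs and -0.06 in animal 71. Of 5 smooth muscle markers 5 were called lower (median -1.47), with a mean log2 level over the list of 3.84 to 5.50 in Jejunum and 1.33 to 5.36 in Peyer. Of 7 B cell markers 6 were called higher (median 5.79), with a mean log2 level of -4.30 to -3.96 in Jejunum and -1.63 to 1.47 in Peyer. Relative to the epithelial mean, SLC6A19 stood at -1.26 ± 0.60 (SD, n = 6), SLC2A5 at -1.11 ± 0.55, SLC2A2 at -0.76 ± 0.33 and SLC5A1 at -0.48 ± 0.28, each below 0 in 6 of 6 pigs. The value was -0.01 ± 0.31 for SLC15A1, 0.24 ± 0.23 for SLC7A9, 0.18 ± 0.40 for SLC3A1, 0.25 ± 0.24 for SLC11A2 and 0.29 ± 0.66 for S100G. These relative values were computed with the results known and are a description, and the part of these cell types in the differences was not tested.

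**Figure D4:**
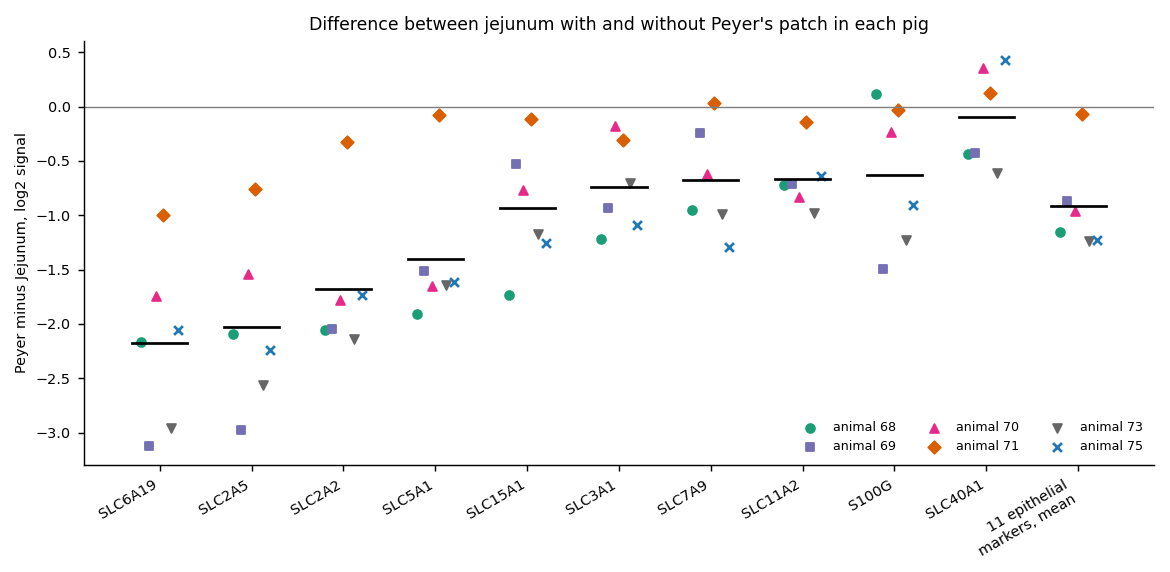
Peyer minus Jejunum in log2 signal (y axis) for the brightest probe of each gene and for the mean of 11 epithelial markers (x axis), 1 symbol per pig with the mean as a line. Animal 71 lies nearest to 0 among the 6 pigs for the markers and for every gene but SLC3A1, where animal 70 does.

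Correlations between the genes were high over the tissues for most pairs and mixed within a tissue. Over the 24 arrays, which share the large steps between tissues, SLC5A1 correlated with SLC15A1 at r = 0.992, with S100G at 0.977 and with SLC2A5 at 0.948, while SLC2A2 correlated with SLC5A1 at 0.213 and SLC40A1 with SLC5A1 at -0.953. These values include signals below background, for SLC40A1 on all gut arrays and for SLC15A1 and SLC2A5 on all Liver and Spleen arrays. Over the 6 Jejunum arrays SLC5A1 and SLC15A1 correlated at 0.442, SLC5A1 and S100G at -0.147 and SLC7A9 and SLC3A1, the partner chains, at 0.093. Over the 6 Peyer arrays SLC5A1 with SLC2A2 reached 0.914 and SLC15A1 with SLC7A9 0.960, with the array of animal 71 at the top for each of them. Correlations over 6 arrays are a description only.

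Among 10457 other named genes, the 3 whose level over the 24 arrays was most like each member were taken. For SLC5A1 they were GUCA2A, which encodes guanylin (r = 0.997), SLC44A4 (0.996) and the disaccharidase SI (0.995). SLC15A1 was most like the brush border protease MEP1A (0.998), SI (0.998) and FAM3B (0.997), and S100G like SPINK1 (0.997), the fatty acid binding protein FABP2 (0.995) and REG4 (0.993). SLC7A9 was most like the aminopeptidase ANPEP (0.990), the IgA transporter PIGR (0.988) and ENPP3 (0.985), and SLC3A1 like the glucosidase MGAM (0.981), PLPP2 (0.980) and GAL3ST1 (0.977). The nearest genes were BTN3A2, ANXA4 and CDHR2 for SLC2A5 (0.972 to 0.975) and FAM160A2, GNA11 and GATA5 for SLC6A19 (0.978 to 0.985). SLC2A2 was most like GSTK1, STARD4 and GSTO1 (0.983 to 0.985), SLC11A2 like NOXA1, LOC780435 and VDAC1 (0.892 to 0.904) and SLC40A1 like DOCK4, CDH2 and NCKAP1 (0.970 to 0.977). The signals of SLC40A1, SLC15A1 and SLC2A5 below background enter these values too.

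**Figure D5:**
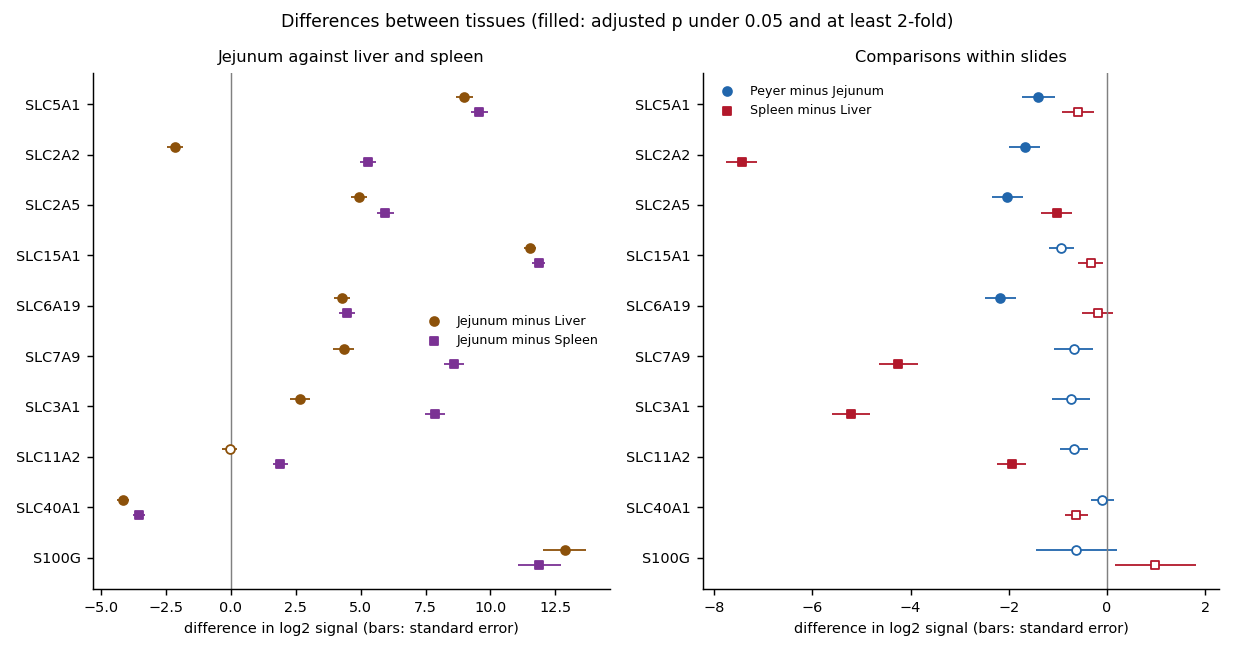
Difference in log2 signal between tissues (x axis, with standard error) for the brightest probe of each gene (y axis). Left, Jejunum against Liver and Spleen; right, the comparisons whose tissues share slides; filled symbols passed the adjusted p of 0.05 and 2-fold. SLC2A2 lies left of 0 against Liver and right of 0 against Spleen, SLC40A1 left of 0 against both, and no gene lies right of 0 for Peyer minus Jejunum at this scaling.

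Peyer differed from Liver in 9 of the 10 genes, 7 higher and 2 lower (background 41.2%, 19.7% higher and 21.4% lower), and from Spleen in 10, 9 higher and 1 lower (background 26.8%, 10% higher and 16.8% lower). With median centring the share of all calls that were higher went from 47.9% to 55.6% against Liver and from 37.3% to 55.5% against Spleen. The genes lower than in Liver were SLC2A2 and SLC40A1, as for Jejunum. Spleen differed from Liver in 5 genes, all lower (background 39.6%, 17% lower and 22.6% higher), namely SLC2A2, SLC3A1, SLC7A9, SLC11A2 and SLC2A5, and the last rests on signals below background. On the shared slides 1, 2 and 3 the Spleen minus Liver values were -4.75, -4.52 and -3.49 for SLC7A9, -5.61, -4.56 and -5.47 for SLC3A1 and -2.20, -2.13 and -1.49 for SLC11A2.

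Other genes of these pathways were followed through 6 lists, whose medians stand beside 0.03 over all tested probes for Jejunum minus Liver and -0.16 for Peyer minus Jejunum. The counts stand beside 18.1% of all probes called higher and 15.2% lower in the first comparison, and 5.61% and 8.48% in the second. In the list of sugar and vitamin transport 4 of 19 tested genes were higher in Jejunum than in Liver and 4 lower (median -0.18). SLC5A11, a sodium-linked inositol transporter, was higher by 6.33 ± 0.38 and SLC5A4, a relative of SLC5A1, by 4.88 ± 0.35, while MLXIPL, a glucose-responsive transcription factor, was lower at -2.93 ± 0.39 (adjusted p = 5.3e-13, 1.5e-11 and 7e-07). Between Peyer and Jejunum 4 were lower and 0 higher (median -0.66), with MLXIPL at -1.64, the fructose kinase KHK at -1.54 and SLC5A4 at -1.34.

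In the amino acid list 10 of 16 genes were higher in Jejunum than in Liver and 3 lower (median 1.38). The glutamate importer SLC1A1 was higher by 4.49 ± 0.40 and SLC7A8, a basolateral exchanger of neutral amino acids, by 4.18 ± 0.34. Between Peyer and Jejunum 3 were higher and 5 lower (median -0.61). SLC15A2, a second proton-driven peptide transporter, was higher in Peyer by 2.80 ± 0.32 (adjusted p = 2.5e-06, 6 of 6 pigs), whereas SLC15A1 stood at -0.93. SLC1A1 was lower in Peyer at -1.51 and SLC7A8 at -1.48.

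Iron genes ran mostly towards the liver. Of 21 tested genes 12 were lower in Jejunum than in Liver and 0 higher (median -1.93), led by the plasma proteins ceruloplasmin (CP, -12.1), haptoglobin (HP, -11.3) and transferrin (TF, -8.18), all products of hepatocytes. Between Peyer and Jejunum 1 was higher and 3 lower (median -0.09), near the shares of all probes. STEAP4, a metalloreductase, was higher by 2.22 ± 0.49 in 5 of 6 pigs, with 2 Jejunum arrays above background, and FLVCR2 and the iron-responsive aconitase ACO1 were lower at -1.22 and -1.06.

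Of 14 genes of calcium transport and the vitamin D response 5 were higher and 3 lower in Jejunum than in Liver (median 0.90). VDR, the vitamin D receptor that drives S100G, was above background on no Liver array and at least 12.2-fold higher in Jejunum (adjusted p = 6.3e-13). It was lower in Peyer than in Jejunum at -2.21 ± 0.34 (adjusted p = 6e-05, 6 of 6 pigs), the only gene of this list called there (0 higher, 1 lower, median -0.44), while S100G stood at -0.63. CYP27A1, a liver enzyme of vitamin D and bile acid synthesis, and the parathyroid hormone receptor PTH1R were lower in Jejunum than in Liver at -5.72 and -4.16.

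In the list of sodium, phosphate, zinc and copper transport 11 of 18 genes were higher and 1 lower in Jejunum than in Liver (median 1.47). The chloride exchanger SLC26A3 was at least 51.6-fold higher and the sodium-proton exchanger SLC9A2 at least 43.1-fold, both with no Liver array above background, and the zinc importer SLC39A4 was higher by 4.35 on the log2 scale. Between Peyer and Jejunum 11 of 18 were lower and 0 higher (median -1.07), among them the copper ATPase ATP7B at -2.14, the copper importer SLC31A1 at -2.01 and SLC26A3 at -1.74.

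Transcriptional regulators of the absorptive programme gave 7 higher and 1 lower of 12 in Jejunum against Liver (median 1.36), among them KLF4 at 5.58, GATA5 at 4.47 and KLF5, which measured 8.35 with 1 Liver array above background. Between Peyer and Jejunum 6 were lower and 0 higher (median -1.01), with GATA4 at -2.08 ± 0.42, HNF4G at -1.86 ± 0.43 and GATA5 at -1.63 ± 0.26 (adjusted p = 0.00061, 0.0018 and 7.2e-05), each in 6 of 6 pigs.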

How the data were processed

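Per the labels' protocols, 200 ng of RNA per sample, with an integrity number over 7.5, was turned into Cy3-labelled cRNA, and each of the 24 samples has 1 one-colour Agilent array. The deposited scanner files hold spot intensity values that the authors obtained with Agilent Feature Extraction 10.10.1.1, per the submitters' processing notes. Per the file headers they are background-subtracted and detrended within the array, and not normalized between arrays. The authors' deposited table holds log2 values of 44600 probes, in which the 24 columns have identical sorted values; limma is named for it, and the version and centring are not given in the sources used here.

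From the scanner files log2 signals were taken relative to each array's 75th percentile. A probe was tested where some tissue had it well above background in all 6 pigs and no array gave it an outlier call (42650 of 60305, all 24 member probes among them). The fit was made by eBayes after lmFit in limma 3.58.1 under R 4.3.3, with tissue as the only term, all 24 arrays and Benjamini-Hochberg adjustment over all tested probes. On data simulated for Jejunum minus Liver over 42650 probes it recovered 88% of 100 shifts of 1.5 and 98% of 100 shifts of 3 (log2), with 5 false calls. Apart from the shifts, each simulated probe had the same mean in all tissues and independent normal noise. No slide effect, animal effect or lower limit of signal was simulated, so these rates need not hold for the real comparisons. The array number limits the precision. Alternatives were median centring, quantile normalization, normexp, the authors' values, no filter on dim probes, only the arrays of the tissues compared, animal or slide as a block, other probes of a gene, and leaving out each animal, the Peyer array of animal 71 or, added after seeing the data, the Spleen array of animal 73.

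The replicate numbers are animal numbers and pair the samples: deviations of same-pig arrays correlated at a mean r of 0.17 (36 pairs, lowest -0.021) against -0.034 for different pigs. Named besides the members are, per list, up to 3 called genes with the largest difference in Jejunum minus Liver and up to 3 in Peyer minus Jejunum, and the 3 genes most like each member. An item that this rule names is not reported here. Markers are enterocyte, hepatocyte, B cell and other lists. Members, lists and tests were chosen with earlier results of these data known.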

Additional observations from a re-analysis of the deposited data

Results flagged for a closer look

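Within the tissues, 14 of 96 groups of 6 arrays held an array whose gap to the nearest other, divided by the range of the group, exceeded Dixon's critical value; chance marks about 1 in 20 groups. Probes of 1 gene are not independent. In Spleen, animal 73 was high for S100G, at 2.38 on A_72_P088751 and 1.30 on A_72_P701142. Animal 71 was high in Spleen for SLC3A1 probe A_72_P443088 at -5.26, below background.

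In Peyer, animal 71 was the high array for SLC5A1 (7.01), SLC2A2 (1.53) and SLC6A19 (-0.90), each within the range of the Jejunum arrays.

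In Liver, animal 73 was low for SLC7A9 on both probes (-3.10 on A_72_P538288 and -1.18 on A_72_P088796). It was high for SLC15A1 on both (-5.00 on A_72_P453085 and -6.35 on A_72_P440541, neither above background) and for SLC5A1 probe A_72_P488671 at -3.55, a probe with 1 Liver array above background. Its epithelial marker mean of -0.68 and its hepatocyte marker mean of 8.75 were both the highest of the Liver arrays. Its 75th percentile signal of 424 and its share of probes above background, 60.4%, were the lowest of them. The part of other tissue or of the scaling in these values was not tested.

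In Jejunum, animal 70 was low for SLC15A1 on both probes (4.30 on A_72_P440541 and 2.72 on A_72_P453085), and animal 75 was low for SLC11A2 probe A_72_P678294 at -5.46.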

How the results depend on the processing

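Of 1044 values of single genes under alternative settings 982 kept their side of the call, 33 lost it with the same sign, 11 gained it with the same sign and 18, called in at least 1 of the settings, changed sign. Of the 982, 9 changed sign without being called in either setting, in S100G Spleen minus Liver (-0.56 to -0.10), SLC11A2 Jejunum minus Liver (0.0062 to 0.10) and SLC40A1 Peyer minus Jejunum (0.0078 to 0.20). The numbers of member genes called were the same with the animal as a replicate block and with slide as a block (4 in Peyer minus Jejunum, 5 in Spleen minus Liver); the pairing by animal changed no member's call, and probes called in Peyer minus Jejunum were 6148 in place of 6010. Leaving out 1 pig at a time gave 9 to 10 member genes in Peyer minus Spleen, 4 to 5 in Peyer minus Jejunum and 4 to 5 in Spleen minus Liver, and 4567 to 8089 probes in Peyer minus Jejunum. With normexp 9444 probes were called in Jejunum minus Liver, 3635 in Peyer minus Jejunum and 10981 in Spleen minus Liver, S100G stood at 10.8 in Jejunum minus Liver, SLC7A9 at -2.46 and SLC3A1 at -3.05 in Spleen minus Liver, and with no filter on dim probes 27377 in Peyer minus Liver (17559 as reported).

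The authors' values carried almost none of the difference between the slides of liver and spleen and those of gut: over the member probes the 2 sets of slides differed by a median of 0.06, against 4.92 in the scanner signals. Comparisons across the slide sets therefore cannot be read from them. They gave 4445 probes and 2 member genes in Jejunum minus Liver, 7373 and 4 in Jejunum minus Spleen, 7588 and 4 in Peyer minus Liver and 4104 and 3 in Peyer minus Spleen, with 42.5% of all calls higher in the first (54.4% as reported) and 62.1% in the last (37.3%). Signs changed to -0.96 for SLC7A9 and -1.31 for SLC3A1 in Jejunum minus Liver and to -0.024 for S100G in Jejunum minus Spleen. In Peyer minus Liver they changed to -0.77 for SLC5A1, -0.97 for SLC2A5, -0.57 for SLC15A1, -0.92 for SLC6A19, -1.67 for SLC7A9 and -1.98 for SLC3A1, and in Peyer minus Spleen to -0.45 for SLC5A1, -0.60 for SLC2A5, -0.29 for SLC15A1, -0.73 for SLC6A19 and -0.69 for S100G. On shared slides the authors' values followed the scanner (r = 0.961 for Peyer minus Jejunum), with 3764 probes and the same number of member genes, 4, in Peyer minus Jejunum and 4 in place of 5 in Spleen minus Liver, where SLC2A5 stood at -0.37. Called results that changed sign on another probe of the gene were A_72_P442096 (-0.077) and A_72_P678294 (-0.58) of SLC11A2 in Peyer minus Spleen and A_72_P496336 of S100G in Jejunum minus Liver (-0.092) and Peyer minus Liver (-0.45); the cause was not tested.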
